A study of Mus musculus with 12 samples.

Results

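DNA replication and S-phase genes form a set of 39 genes that copy DNA, license and fire its origins, supply its nucleotides or drive cells into S phase. They were taken by gene name from a table of 54232 mouse genes, counted in tumors of the SVR cell line. All 39 names were found, and 36 of the 39 had enough reads to be tested. In trametinib treated tumors 0 of these 36 were called higher and 0 lower than in control tumors, where 2.64% and 3.47% of all genes tested were, so that the count of 0 by itself does not set the members apart from other genes. In the same comparison Ccnd1 and 8 of 14 tested ERK output genes were called lower. In combination treated tumors 1 of the 36, Rrm2, was called higher than in control, beside 4.85% of all genes, and that call was lost when any of 4 single tumors was left out.

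Before S phase, the origin recognition complex (Orc1 to Orc6), Cdc6 and Cdt1 load the MCM helicase, a ring of Mcm2 to Mcm7, onto DNA. Cdc45 and the GINS complex turn the ring into an active helicase. Polymerase alpha with primase starts each strand, the RFC clamp loader places the PCNA ring, and polymerases delta and epsilon extend. Transcription of these genes peaks at the G1/S boundary, when cyclin D and CDK4/6 signaling releases E2F factors from RB family proteins. ERK signaling feeds into this step through cyclin D1 and MYC. SVR cells are mouse endothelial cells that carry SV40 large T antigen and an activated Ras, and large T itself binds RB family proteins. The comparisons below ask whether the replication transcripts followed the ERK output genes when MEK was inhibited in such cells. The viral transcript was not analysed here.

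All 12 tumors were subcutaneous SVR xenografts in adult nude mice, with 3 mice in each of 4 groups, and all were labelled with the same cell line and with the strain C57BL/6. Mice received daily oral gavage of vehicle (control), trametinib at 1 mg/kg, cediranib at 3 mg/kg, or both drugs at these doses (combination). Trametinib inhibits MEK, the kinase above ERK, and cediranib inhibits the VEGF receptors. Whole tumor RNA was sequenced after exome capture, so a count depends on a gene's probes as well as its transcripts. Because SVR is 1 cell line, p-values measure the spread between these tumors and not between cell lines. No source used here says which of the treatment experiments of the study supplied the tumors. The harvest day varied in 1 of these experiments, so the length of treatment and the drug cannot be told apart. Libraries held 9478865 to 11666094 counts, and 12897 genes passed the filter on low counts. Levels are given as CPM, counts per 1000000 of the library after scaling with TMM factors (a correction for library composition), and 3 counts in a library correspond to 0.251 to 0.349 CPM. A gene was called at an FDR (Benjamini-Hochberg adjusted p) below 0.05 in the quasi-likelihood test of edgeR, fitted on all 12 libraries and all genes tested. No member met the stricter rule of the study, which adds a log2 fold change beyond 1.5 in either direction, in any comparison.

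Tumor cells, stroma and skin are all of mouse origin here, and in bulk tumors fewer cells of a type and less RNA per cell cannot be told apart. Of 12 endothelium markers 11 were tested, and the 12 summed to 257 to 513 CPM in control, 114 to 175 in trametinib, 160 to 400 in cediranib and 81.9 to 146 in combination treated tumors, with Emcn at 0 in the 3 trametinib treated tumors. The 22 epidermis markers summed to 3209 to 4759 CPM in combination, 89.4 to 106 in trametinib, 81.2 to 719 in control and 93.4 to 3048 in cediranib treated tumors, and 9 of the 22 were at 0 in all trametinib treated tumors. Fibroblast markers ran from 2259 to 21231 CPM in control, 8970 to 37216 in trametinib, 1778 to 6845 in cediranib and 3193 to 5988 in combination treated tumors. Macrophage markers summed to 392 to 691 CPM in control, 306 to 437 in trametinib, 285 to 447 in cediranib and 177 to 312 in combination treated tumors, and 4 of the 10 tested were called lower in the combination than in control. Erythroid markers summed to 75.7 to 1801 CPM in control, 56.4 to 91.8 in trametinib, 58.5 to 572 in cediranib and 15.6 to 20.05 in combination treated tumors, and 4 of the 6 tested were called lower in the combination than in control. In that comparison 6 of 11 endothelium markers were called lower, and 10 of 21 epidermis and 1 of 9 fibroblast markers higher. Of all genes 5.13% were called lower and 4.85% higher. With trametinib 5 of 11 endothelium and 1 of 21 epidermis markers were called lower and 2 of 9 fibroblast markers higher, beside 3.47% and 2.64%. Skeletal muscle markers reached 16929 CPM in control replicate 2 and 23746 CPM in trametinib replicate 2, and stayed at 1991 CPM or less in the other 10 tumors. The part of these tissues in the results below was not tested, apart from an epidermal score that was added to the fit as an alternative.

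Promoter windows were taken from RefSeq on GRCm38.p6, from 250 bases before to 50 bases after each start, and 32 of the 39 genes had one. Each was searched on both strands for 4 words of the E2F binding type, TTTCCCGC, TTTCGCGC, TTTGCCGC and TTTGGCGC. At least 1 word stood in 14 of the 32 genes, or 43.75%, against 4.73% of the 8819 tested genes with a window and 2.60% of all 27025. The other replication factors described below had a word in 10 of 32 genes, the mitosis genes in 1 of 16 and the ERK output genes in 0 of 11. The windows below are 3 of those with more than 1 word, with every word in capitals, followed by that of Rrm2, the member called in the combination. Mcm6 holds 3 words, of which a pair overlaps, in chr1:128359656-128359955 on the minus strand. Mcm5 holds an overlapping pair in chr8:75109259-75109558 on the plus strand, and Rfc3 a pair at its start site in chr5:151651159-151651458 on the minus strand. Rrm2 holds no such word in chr12:24708004-24708303 on the plus strand, and its capitals mark the letters CCAAT, the box bound by NF-Y.
Mcm6: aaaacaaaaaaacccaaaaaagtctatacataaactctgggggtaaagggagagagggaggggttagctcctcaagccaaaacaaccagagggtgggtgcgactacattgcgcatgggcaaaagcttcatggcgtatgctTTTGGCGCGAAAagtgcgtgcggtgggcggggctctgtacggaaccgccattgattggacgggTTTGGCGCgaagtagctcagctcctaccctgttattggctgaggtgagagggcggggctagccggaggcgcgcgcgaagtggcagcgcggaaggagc
Mcm5: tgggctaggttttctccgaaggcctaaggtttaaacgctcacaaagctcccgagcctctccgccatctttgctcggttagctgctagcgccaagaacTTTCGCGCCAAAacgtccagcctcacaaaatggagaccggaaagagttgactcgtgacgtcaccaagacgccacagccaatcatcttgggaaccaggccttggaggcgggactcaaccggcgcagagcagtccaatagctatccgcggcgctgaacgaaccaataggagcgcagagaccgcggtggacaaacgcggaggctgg
Rfc3: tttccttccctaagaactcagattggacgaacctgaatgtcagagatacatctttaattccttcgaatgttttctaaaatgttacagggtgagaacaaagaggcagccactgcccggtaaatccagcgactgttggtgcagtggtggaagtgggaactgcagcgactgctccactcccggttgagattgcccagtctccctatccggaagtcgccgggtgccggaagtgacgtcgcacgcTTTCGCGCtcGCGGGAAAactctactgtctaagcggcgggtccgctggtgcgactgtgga
Rrm2: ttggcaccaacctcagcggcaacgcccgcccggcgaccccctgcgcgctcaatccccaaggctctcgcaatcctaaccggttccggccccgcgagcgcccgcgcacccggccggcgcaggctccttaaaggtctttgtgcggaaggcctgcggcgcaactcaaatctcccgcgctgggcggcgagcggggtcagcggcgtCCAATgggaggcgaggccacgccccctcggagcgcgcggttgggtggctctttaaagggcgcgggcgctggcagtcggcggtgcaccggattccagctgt
CCAAT, on either strand, stood in 20 of the 32 genes, or 62.5%, and in 41.1% of all windows. It stood in 16 of 32 other replication factors, 14 of 16 mitosis genes and 6 of 11 ERK output genes. A match describes these letters in this window and is not a measured binding site.

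The summed level of the set ran from 1917 to 2303 CPM across tumors, and all 3 trametinib treated tumors lay above all 3 control tumors. Summed over the 39 genes, control tumors held 2151, 2085 and 1917 CPM, trametinib treated tumors 2172, 2297 and 2239, cediranib treated tumors 2023, 2080 and 1960, and combination treated tumors 2303, 2174 and 2078. The means of the 3 tumors, in the same order of groups, were 2051 ± 120, 2236 ± 62.4, 2021 ± 59.7 and 2185 ± 113 CPM (SD, n = 3). Among genes of at least 20 CPM, the 21 members had a median standard deviation of 0.179 in log2 CPM over the 12 tumors, against 0.235 for the 5274 genes of that level. It ran from 0.110 for Fen1, the flap endonuclease that trims Okazaki fragments, to 0.318 for Rrm2, the small subunit of ribonucleotide reductase. A standard deviation under 0.3 was found for 95.2% of these members and 69.6% of these genes.

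**Figure D1:**
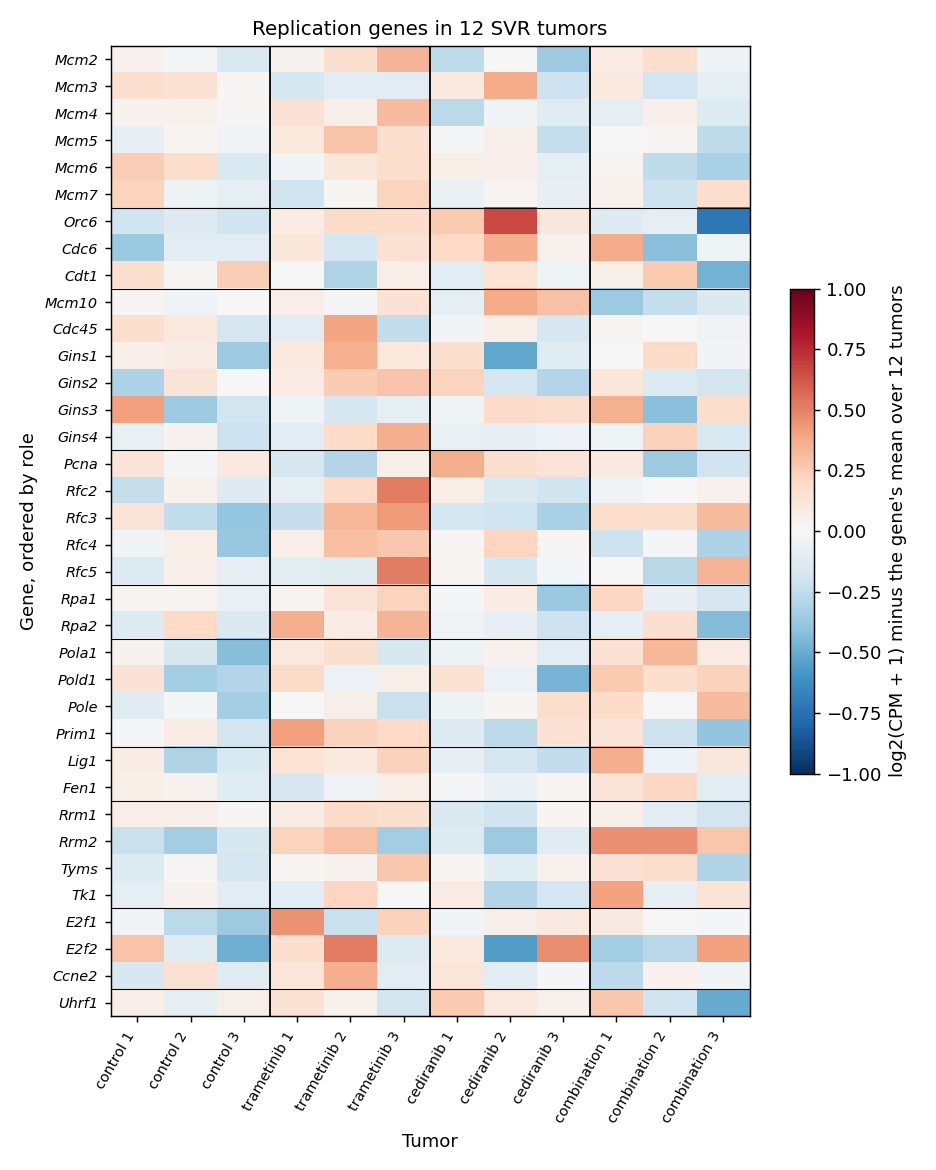
Level of the 36 tested replication genes in each of 12 tumors, as log2(CPM + 1) minus the gene's mean over all tumors, with genes grouped by role and tumors by treatment. Most cells lie near 0, with Rrm2 above its mean in the 3 combination treated tumors and in trametinib replicates 1 and 2.

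Levels differed far more between genes than between treatments. Per kilobase of exon, averaged over the 12 tumors, Rrm2 was the highest at 89.5 CPM per kb, followed by the helicase subunits Mcm4 at 55.6, Mcm3 at 49.6 and Mcm6 at 41.3. The other subunits of the same ring lay lower, at 16.1 for Mcm7, 13.9 for Mcm5 and 13.5 for Mcm2. The GINS complex spread from 23.4 CPM per kb for Gins4 to 0.35 for Gins2. Pcna, a standard marker of S phase, held 3.88 CPM per kb. The lowest members were Cdc6 at 0.23, Dut at 0.19, and Orc1 and Ccne1 at 0.06 each. Orc1, the ATPase of the origin recognition complex, Dut, which removes dUTP, and Ccne1, cyclin E1, were the 3 members not tested, with 27, 58 and 20 counts in all 12 libraries. Levels per length still depend on the capture probes of each gene. Exons of 14 members overlap another annotated gene, 13 of them on the opposite strand, such as Rfc4 with Eif4a2, Mcm7 with Cops6 and Orc6 with Vps35. The strand setting of the counts is not given, so reads of these partners cannot be told apart. Mcm2, Pcna, Mcm5, Rrm1, Rrm2 and E2f1 have no such overlap.

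Trametinib against control asks what MEK inhibition did to these genes. Mcm2, a subunit of the helicase ring, held 96.2, 91.9 and 83.4 CPM in control tumors and 95.5, 103.9 and 118.0 CPM in trametinib treated tumors. The groups overlapped, with a fitted log2 fold change of 0.23 ± 0.13 (standard error; FDR = 0.353). Pcna, the sliding clamp, held 10.1, 9.12 and 9.90 CPM in control and 8.08, 7.33 and 9.63 CPM in trametinib treated tumors. These groups overlapped too, and the fitted value was -0.22 ± 0.19 (FDR = 0.581). Of the 36 members 0 were called in either direction by edgeR, where 2.64% of all genes tested were called higher and 3.47% lower. At an unadjusted p below 0.05, 2 members were higher and 0 lower, against 10.2% and 10.5% of all genes, and these were Rfc4 and E2f1, chosen here after their values were seen. Under the stricter rule 0.977% of all genes were called higher and 1.43% lower, and 0 members. The Wald test of DESeq2 called 0 members and 1309 of 12893 genes, and the likelihood ratio test of edgeR 0 members and 1155 of 12897 genes.

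The fitted values lay in a narrow band. They ran from -0.31 for Cdt1, the licensing factor that loads MCM (standard error 0.35, FDR = 0.689), to 0.55 for Orc6, a subunit of the origin recognition complex (standard error 0.40, FDR = 0.494). Both are scarce, with 1.28 to 2.32 CPM for Cdt1 and 1.11 to 1.76 CPM for Orc6 in these 6 tumors. Values were above 0 for 27 members and below 0 for 9, with a median of 0.21 against 0.01 for all genes. The median stayed between 0.14 and 0.23 when each of the 6 libraries was left out in turn, and was 0.21 without TMM scaling. The 95% interval of the log2 fold change lay above -1 for 35 of 36 members, or 97.2%, and for 74.6% of all genes. The exception was Cdt1, whose interval reached -1.07. The members' intervals were also narrower, with a median distance of 0.37 from value to bound against 0.54 for all genes.

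By role, values for the 6 MCM subunits lay between -0.24 and 0.23. Their summed level was 869, 840 and 762 CPM in control and 787, 828 and 896 CPM in trametinib treated tumors, which overlapped. Mcm3 was the only member whose 3 trametinib treated tumors, at 163 to 172 CPM, all lay below the control tumors, at 186 to 207 CPM. Mcm5 held 52.0, 56.2 and 53.7 CPM in control and 59.5, 67.4 and 61.8 CPM in trametinib treated tumors, with no overlap. Values for the 4 polymerase and primase genes (Pola1, Pold1, Pole, Prim1) were all above 0, between 0.10 and 0.33, as were those of the 4 nucleotide supply genes tested (Rrm1, Rrm2, Tyms, Tk1), between 0.09 and 0.33. The clamp loader subunits Rfc2, Rfc3, Rfc4 and Rfc5 had values up to 0.36, and the single-strand binding genes Rpa1 and Rpa2 0.14 and 0.34. The flap endonuclease gene Fen1 and the nick-sealing ligase gene Lig1 lay within -0.04 and 0.28. The 6 genes of helicase activation (Cdc45, Mcm10 and the 4 GINS genes) lay between -0.13 and 0.43. E2f1, E2f2 and Ccne2, the activating E2F factors and cyclin E2, lay between 0.18 and 0.41. Uhrf1, which guides maintenance methylation to new DNA, held 4.77, 4.16 and 4.75 CPM in control and 5.08, 4.66 and 3.85 CPM in trametinib treated tumors. In all, the groups did not overlap for 10 members higher with trametinib (Mcm4, Mcm5, Orc6, Gins1, Rfc4, Rpa1, Prim1, Lig1, Rrm1 and Tyms) and for 1 lower, beside 12.9% of all genes in each direction.

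**Figure D2:**
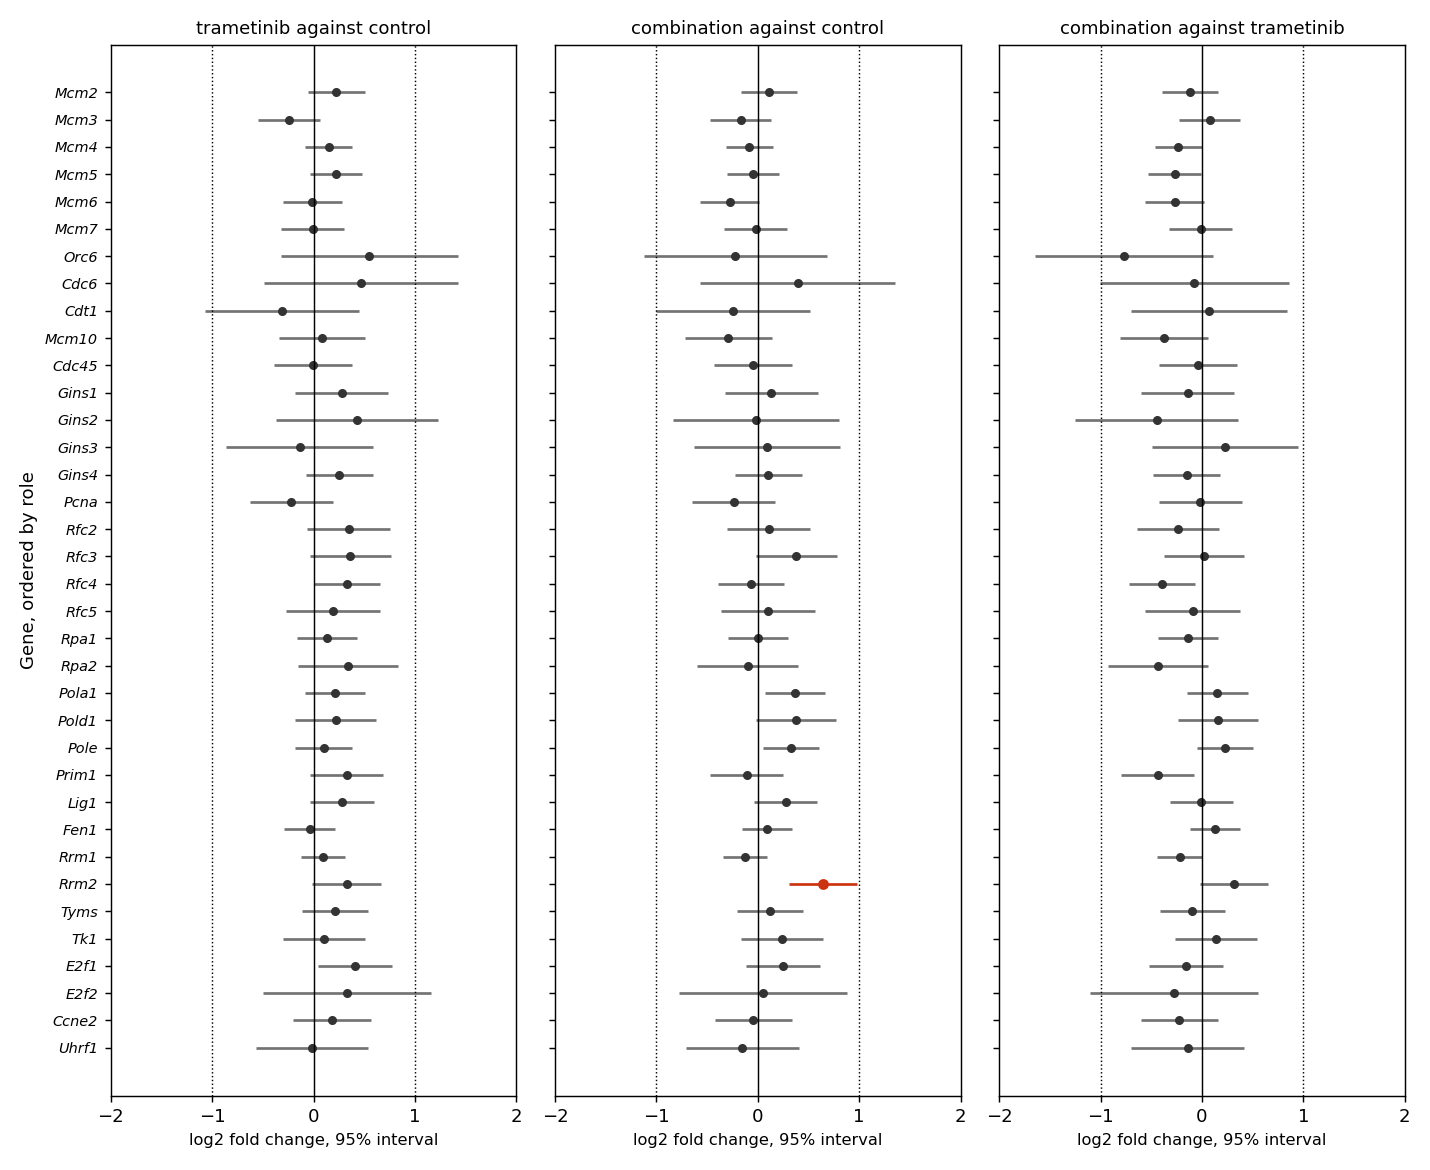
Log2 fold change with its 95% interval for each of the 36 tested members, in trametinib against control, combination against control and combination against trametinib, with dotted lines at -1 and 1 and called genes in red. In the trametinib panel every interval except that of Cdt1 lies above -1, and Rrm2 in the combination panel is the only call.

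The genes that carry ERK signals to the cell cycle gave other values in the same tumors. Ccnd1, cyclin D1, held 89.5, 114 and 93.6 CPM in control and 22.1, 22.1 and 16.4 CPM in trametinib treated tumors. The groups were far apart, and Ccnd1 fell by 2.29 on the log2 scale (standard error 0.16, FDR = 1.83e-05). Myc went from 37.8 ± 5.22 CPM in the controls to 18.1 ± 3.42 CPM with trametinib, and fell by 1.06 (standard error 0.17, FDR = 0.00348). Cdkn2c, the CDK4/6 inhibitor p18, rose by 1.24 (standard error 0.24, FDR = 0.00992), from a mean of 45.3 ± 7.40 to 107 ± 27.1 CPM (SD, n = 3). These 3 were the only genes called among the 21 tested of 23 E2F and RB regulators, a list whose other members include E2f3 to E2f8, Rb1, Rbl1, Rbl2, Cdk2, Cdk4 and Cdk6. Its median was 0.005. Of the ERK output genes, a list of transcripts that ERK signaling induces, 13 of the 14 tested had values below 0. Of these 14, 8 were called lower, and the median was -1.86. Dusp6, an ERK phosphatase, fell by 3.70 (standard error 0.25, FDR = 1.59e-05), from 44.4 ± 4.70 to 3.37 ± 1.30 CPM. The ETS factors Etv5 and Etv4 fell by 3.67 and 2.84 (FDR = 3.35e-05 and 5.79e-05). Values of all 14 tested ERK output genes ran from -3.95 to 0.15 and those of the members from -0.31 to 0.55, so the ranges overlapped.

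**Figure D3:**
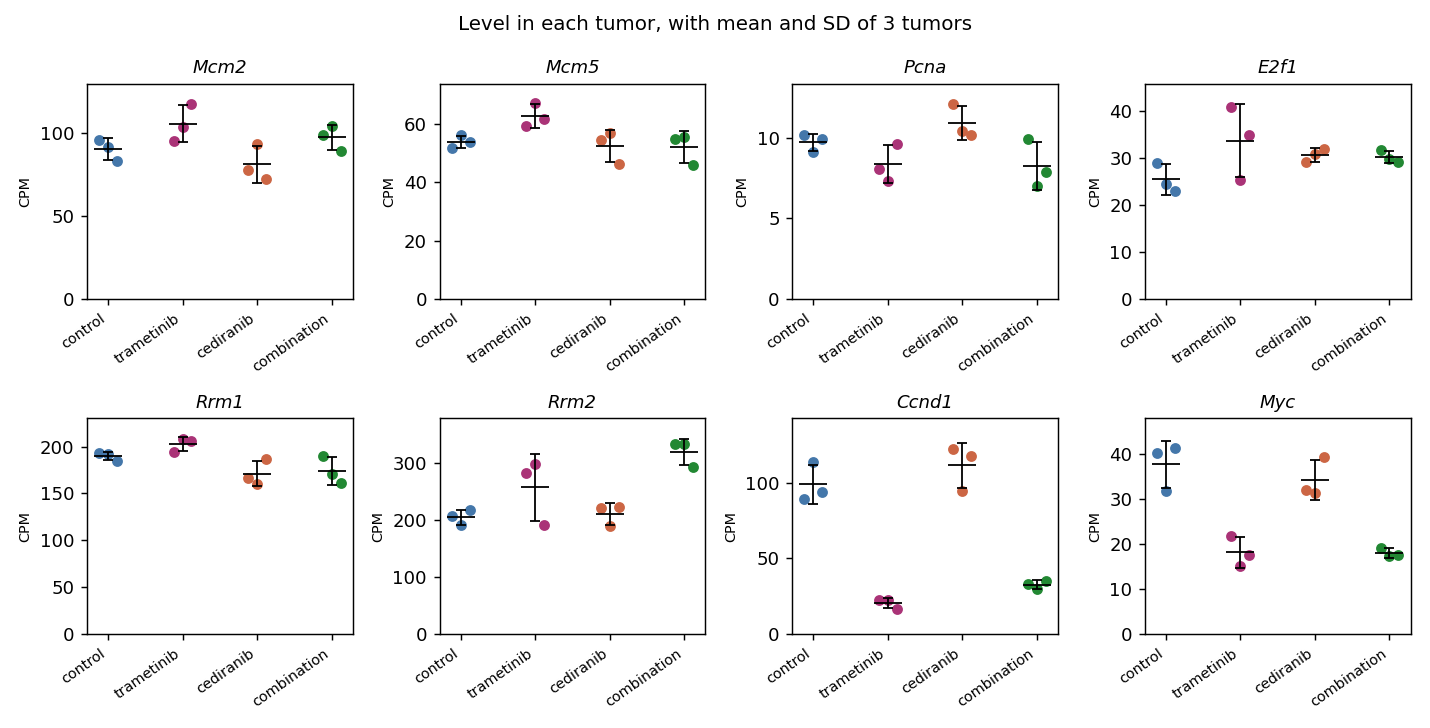
CPM in each tumor (points) with the mean and SD of 3 tumors per group (bars) for 6 members and for the regulators Ccnd1 and Myc, each axis starting at 0. Ccnd1 and Myc are lower in the trametinib and combination treated tumors. Of the 6 members only Rrm2 was called against control, as higher in the combination. All tumors lay above controls for Mcm5 and Rrm1 with trametinib, for Pcna and E2f1 with cediranib, and for E2f1 and Rrm2 in the combination. Mcm2 overlapped control in each group.

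Neighbouring gene lists were read in the same way. Of 40 other replication factors (Orc2 to Orc5, the remaining polymerase and clamp subunits, Cdc7, Dbf4, Topbp1 and others) 38 were tested and 0 were called with trametinib, with a median of 0.10. Of these 38, 4 were higher and 2 lower at an unadjusted p below 0.05. Of 20 mitosis genes 0 were called, 18 had values above 0, and the median was 0.26. Mki67, the Ki-67 proliferation marker, held 28.8, 32.5 and 17.5 CPM in control and 34.8, 38.4 and 21.3 CPM in trametinib treated tumors, a difference of 0.26 ± 0.26 on the log2 scale (FDR = 0.645). This difference ran from 0.03 to 0.46 without single libraries. Of 66 clustered histone genes, whose transcripts accumulate in S phase, 63 were tested and 0 were called in any comparison. Their median was 0.16 with trametinib. Histone genes are near-identical copies, so the authors' counting could split reads between them, and most lack the poly(A) tail that other transcripts carry.

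**Figure D4:**
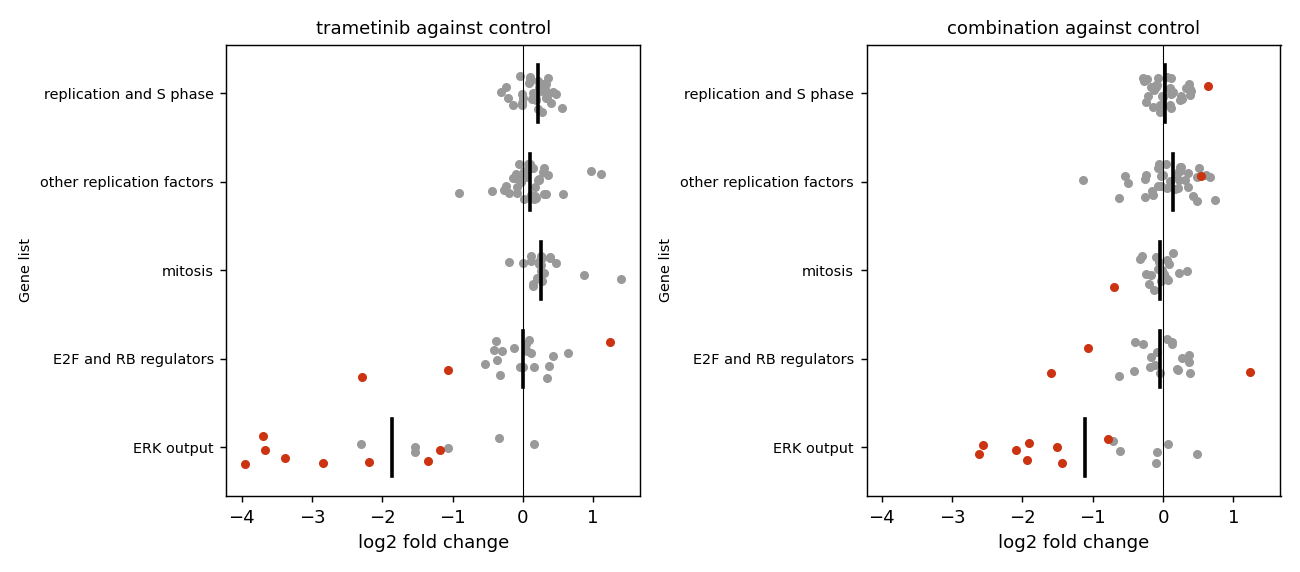
Log2 fold change of every tested gene of 5 lists (points, called genes in red) with the list's median (black bar), in trametinib against control and in combination against control. The ERK output genes reach below -3 with trametinib, while the replication genes lie between -0.31 and 0.55.

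Cediranib against control asks what VEGF receptor inhibition alone did. Of the 36 members 0 were called by edgeR, as were 0% of all genes in each direction. The likelihood ratio test called 0 members and 16 of 12897 genes, and DESeq2 0 members and 11 of 12893 genes. At an unadjusted p below 0.05, 1 member was higher and 0 lower, against 2.56% and 1.76% of all genes. That member was Orc6, the highest of the 36, with 1.11, 1.22 and 1.11 CPM in control and 1.90, 2.84 and 1.63 CPM in cediranib treated tumors. These groups did not overlap, and the fitted value was 0.88 ± 0.40 on the log2 scale (FDR = 0.999). The lowest value was -0.21 for Cdt1 (standard error 0.35, FDR = 0.999). Mcm2 held 78.0, 93.4 and 72.2 CPM with cediranib, which gave -0.16 ± 0.13 against control (FDR = 0.999). Pcna held 12.1, 10.4 and 10.1 CPM, the lowest of which matched the highest control tumor to within rounding, which gave 0.16 ± 0.19 (FDR = 0.999). Values were above 0 for 18 members and below 0 for 18. The groups did not overlap for 4 members higher (Orc6, Cdc6, Pcna and E2f1) and 1 lower (Mcm4), beside 4.31% and 3.45% of all genes. The 95% interval lay above -1 for all 36 members and between -1 and 1 for 34. Mki67 gave 0.24 ± 0.26 (FDR = 0.999), and 0.01 to 0.42 without single libraries.

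Combination against control shares its control tumors with both comparisons above. Rrm2 held 207, 191 and 217 CPM in control tumors and 333, 333 and 294 CPM in combination treated tumors, with no overlap. It was 1.56-fold higher (95% interval 1.23 to 1.97), or 0.64 ± 0.16 on the log2 scale (standard error; FDR = 0.025). With trametinib alone it held 283, 298 and 190 CPM, so that 2 of the 3 tumors lay above every control and 1 lay at the lowest control. With cediranib alone it held 221, 189 and 223 CPM, which overlapped control. Without control replicate 2, control replicate 3, combination replicate 1 or combination replicate 2 the FDR was 0.092, 0.064, 0.069 and 0.071, and the log2 fold change ranged from 0.59 to 0.69 over all 6 libraries left out. Adding the epidermal score to the fit gave 0.43 (FDR = 0.593), in a fit that called 57 genes in all where the one without the score called 1287. The epidermis markers summed to 106, 93.9 and 89.4 CPM in the trametinib treated tumors and to 3048, 93.4 and 1947 CPM in the cediranib treated tumors, in the order of the Rrm2 levels above. Leaving out trametinib replicate 3 gave 1 called member in trametinib against control, and this was Rrm2 as well. Rrm1, the large subunit of the same enzyme, held 193, 192 and 185 CPM in control, 194, 208 and 206 with trametinib, 166, 160 and 186 with cediranib and 190, 170 and 161 in the combination. It was not called in any comparison.

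The other members stayed uncalled in the combination. The 1 call among 36 members stands beside 4.85% of all genes called higher and 5.13% lower. Under the stricter rule these shares were 1.91% and 1.71%. Before adjustment, at p below 0.05, 3 members were higher (Rrm2, Pola1 and Pole) and 0 lower, against 13.4% and 13.8% of all genes. Mcm2 held 98.8, 104.7 and 89.6 CPM, which gave 0.11 ± 0.13 against control on the log2 scale (FDR = 0.625). Pcna held 9.90, 6.99 and 7.89 CPM, which gave -0.24 ± 0.19 (FDR = 0.453). Both overlapped control. The lowest value was -0.29 for Mcm10, which helps to activate the helicase, with 5.88, 5.57 and 5.76 CPM in control and 4.24, 4.72 and 5.10 CPM in combination treated tumors (standard error 0.20, FDR = 0.377). It was also the only member with all combination treated tumors below all controls, beside 15.7% of all genes. The 6 members with all combination treated tumors above all controls were Rfc3, Pola1, Pold1, Pole, Rrm2 and E2f1, beside 15.6% of all genes. Of these, Pola1, the catalytic subunit of polymerase alpha, held 107, 93.5 and 77.6 CPM in control and 116, 132 and 111 CPM in combination treated tumors. Pole, that of polymerase epsilon, held 145, 156 and 124 CPM in control and 179, 157 and 196 CPM in combination treated tumors. Neither was called, while without TMM scaling Pola1 and Rrm2 were. Values were above 0 for 18 members and below 0 for 18, with a median of 0.03. The 95% interval lay above -1 for 34 of 36, all but Orc6 and Cdt1.

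Among the regulators, Ccnd1 held 32.9, 29.7 and 35.2 CPM in the combination and fell to 0.330 of its control level (95% interval 0.260 to 0.418, FDR = 3.70e-04). Myc fell by 1.07 (FDR = 0.00412) and Cdkn2c rose by 1.24 (FDR = 0.00978). Of the 14 ERK output genes 12 had values below 0 and 8 were called lower, with a median of -1.11. Those with the smallest p were Phlda1, Dusp5 and Dusp6, which fell by 1.93, 2.62 and 1.91. When the epidermal score entered the fit, Myc, Dusp5 and Cdkn2c were no longer called, with log2 fold changes of -1.27, -2.48 and 0.76 (FDR = 0.071, 0.064 and 0.502). Among the other replication factors Timeless, part of the fork protection complex, was the only call. It held 51.1, 57.7 and 40.0 CPM in control and 78.3, 68.5 and 68.7 CPM in the combination, with no overlap, and rose by 0.53 ± 0.14 on the log2 scale (FDR = 0.030). That call was lost without any library except control replicate 2, with FDR values up to 0.110, and also with the epidermal score (0.47, FDR = 0.513) or with the compared groups alone in the fit (0.53, FDR = 0.079). Ccnb2, cyclin B2, was the only mitosis gene called, and fell by 0.70 (standard error 0.19, FDR = 0.036). Its call was lost without any library except control replicate 1, with FDR values up to 0.120, and also with the epidermal score (-0.54, FDR = 0.608) or without TMM scaling (FDR = 0.061). Mki67 held 34.7, 23.6 and 28.5 CPM, which gave 0.14 ± 0.26 (FDR = 0.780). This value was -0.09 without control replicate 3 and -0.01 without combination replicate 1.

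Combination against trametinib asks what cediranib added to MEK inhibition. Of the 36 members 0 were called by the quasi-likelihood test of edgeR, beside 0.721% of all genes called higher and 0.248% lower. Its likelihood ratio test called 0 members and 634 of 12897 genes, and DESeq2 0 members and 717 of 12893 genes. At an unadjusted p below 0.05, 0 members were higher and 4 lower (Mcm5, Rfc4, Prim1 and Rrm1), against 9.21% and 8.69% of all genes. The stricter rule called 0.535% of all genes higher and 0.14% lower. The highest value was 0.32 for Rrm2 (standard error 0.16, FDR = 0.313), and the lowest -0.77 for Orc6 (standard error 0.40, FDR = 0.345). For Rrm2 it ran from 0.15 to 0.43 without single libraries and was 0.034 with the epidermal score in the fit. Orc6 held 1.54, 1.75 and 1.76 CPM with trametinib and 1.21, 1.27 and 0.46 CPM in the combination. Its fitted value ran from -0.99 to -0.43 without single libraries and was 0.0269 with the epidermal score in the fit. Mcm2 and Pcna had values of -0.12 and -0.02 (standard errors 0.13 and 0.19, FDR = 0.678 and 0.974). Values were below 0 for 26 members, with a median of -0.13, which was 0.00 without TMM scaling, a setting under which the median of all genes moved from -0.01 to 0.12. Without single libraries the members' median ran from -0.17 to -0.03. The groups did not overlap for 7 members lower (Mcm4, Mcm5, Orc6, Mcm10, Rfc4, Prim1 and Rrm1) and 0 higher, beside 11.8% and 12.4% of all genes. Mitosis genes had values below 0 for 20 of 20, with a median of -0.31 and 0 called, and 7 of the 20 had an unadjusted p below 0.05. Clustered histone genes had values below 0 for 52 of 63, with a median of -0.30 and 0 called. At an unadjusted p below 0.05, 21 of the 63 were lower, beside 8.69% of all genes. For 26 the groups did not overlap and the combination was lower, beside 11.8%. The ERK output genes had values above 0 for 14 of 14. Of these, Dusp6, Etv5 and Etv4 were called, with log2 fold changes of 1.79, 1.58 and 1.40 (FDR = 0.020, 0.027 and 0.024). Without single libraries their FDR ran from 0.039 to 0.066 for Dusp6, from 0.041 to 0.085 for Etv5 and from 0.054 to 0.083 for Etv4. With the epidermal score in the fit none of the 3 was called, with log2 fold changes of 1.77, 2.27 and 0.73 for Dusp6, Etv5 and Etv4 (FDR = 0.682, 0.328 and 0.882). That fit called 2 genes in all, against 125 without the score. Mki67 gave -0.12 ± 0.26 (FDR = 0.855).

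Combination against cediranib asks what MEK inhibition added to VEGF receptor inhibition. Rrm2 was the only member called, beside 3.90% of all genes called higher and 3.78% lower (1.29% and 1.16% under the stricter rule). It was 1.52-fold higher in the combination, or 0.60 ± 0.16 on the log2 scale (FDR = 0.038). The call was lost without each of the 6 libraries in turn, with FDR values from 0.057 to 0.122 and log2 fold changes from 0.53 to 0.66. It was also lost with the replicate number as a block, where the log2 fold change was 0.60 (FDR = 0.057), and after the epidermal score was added to the fit, where it was 0.51 (FDR = 0.162). Those fits called 788 and 475 genes in all, against 991 without block or score. The lowest value was that of Orc6, at 1.90, 2.84 and 1.63 CPM with cediranib and 1.21, 1.27 and 0.46 CPM in the combination. The groups did not overlap, and the fitted value was -1.10 ± 0.40 (FDR = 0.118). Before adjustment, at p below 0.05, 3 members were higher (Rrm2, Rfc3 and Lig1) and 2 lower (Orc6 and Mcm10), against 11.3% and 11.8% of all genes. Mcm2 and Pcna had values of 0.27 and -0.40 (standard errors 0.13 and 0.19, FDR = 0.237 and 0.226). The groups did not overlap for 5 members higher (Rfc3, Pola1, Pold1, Lig1 and Rrm2) and 4 lower (Orc6, Mcm10, Pcna and Rfc4), beside 14.1% and 14.3% of all genes. Among the regulators Ccnd1 fell by 1.78 in this comparison (FDR = 2.02e-04), Myc fell by 0.93 (FDR = 0.00869) and Cdkn2c rose by 1.09 (FDR = 0.019). The call of Cdkn2c was lost with the epidermal score, which gave 0.88 (FDR = 0.091), and without cediranib replicate 1, cediranib replicate 2 or combination replicate 3 (FDR = 0.072, 0.066 and 0.070). Of the 14 ERK output genes 12 had values below 0 and 9 were called lower. Those with the smallest p were Phlda1, Dusp6 and Dusp5, which fell by 2.07, 1.85 and 2.38 (FDR = 3.11e-04, 0.00117 and 0.00142). Timeless rose by 0.49 ± 0.14 (FDR = 0.049). That call was lost without each of the 6 libraries in turn, with FDR values from 0.087 to 0.140. It was also lost without the filter on low counts, with the replicate block, with the compared groups alone and with the epidermal score, where the log2 fold change ran from 0.46 to 0.51. Mki67 gave -0.10 ± 0.26 (FDR = 0.859).

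The interaction contrast asks whether the effect of cediranib differed between tumors with and without trametinib. The quasi-likelihood test called 0 of the 36 members and 0% of all genes. The likelihood ratio test called 0 members and 28 of 12897 genes, and DESeq2 0 members and 37 of 12392 genes with an adjusted p. At an unadjusted p below 0.05, 0 members were higher and 3 lower (Orc6, Rfc4 and Mcm10), against 3.89% and 3.16% of all genes. The lowest value was -1.65 for Orc6 (standard error 0.57, FDR = 0.665) and the highest 0.28 for Cdt1 (standard error 0.50, FDR = 0.934). The values of Orc6 rest on 0.46 to 2.84 CPM per tumor. Mcm2 and Pcna had values of 0.04 and -0.18 (standard errors 0.18 and 0.26, FDR = 0.979 and 0.911). Mki67 had a value of -0.36 (standard error 0.37, FDR = 0.879). For Rrm2, added after its values were seen, the value was 0.28 (standard error 0.22, FDR = 0.836), so that a different effect of cediranib with and without trametinib was not detected at this depth and number of tumors.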

How the data were processed

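RNA of 12 SVR xenograft tumors, 3 per treatment, was measured after exome capture. The authors called bases with bcl2fastq 1.8.4, aligned reads to GRCm38 with STAR 2.7.1a and deposited featureCounts 1.6.0 counts that were not normalized. Annotation release, strandedness and the treatment of multimapping reads: not given in the sources used here. Groups were taken from each sample's labels. Genes with low counts were removed with filterByExpr (minimum count 10, minimum total 15). After TMM scaling, edgeR 4.0.16 (R 4.3.3) fitted its quasi-likelihood model to all 12 libraries together, and p-values were adjusted by Benjamini-Hochberg over all 12897 genes tested. Standard errors are the absolute log2 fold change over the square root of F, and 95% intervals use the degrees of freedom of that fit. DESeq2 1.42.0 and the likelihood ratio test were alternatives. Levels per length were divided by the gene length deposited with the counts. The limit of 3 counts covers counting error only.

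The members, the gene lists and the role groups were chosen with earlier results of these data known. The fold change and test of single genes were given by a rule: in each comparison for Mcm2 and Pcna, for the highest and the lowest member, for up to 12 called members, for up to 3 called genes of each other list, and for Mki67. Marker lists of other tissues are given by summed levels and counts alone. Correlations of the deviations of same-numbered tumors ran from -0.22 to 0.36, with the highest between control replicate 2 and trametinib replicate 2. These tumors share only a number, so the replicate numbers were not used as pairs in the main fit. None of the 66 pairs of libraries was identical.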

Additional observations from a re-analysis of the deposited data

How the results depend on the processing

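The counts of called members were the same under each alternative for cediranib against control, combination against trametinib and the interaction, and the count at an absolute log2 fold change of 1.5 was 0 throughout. For trametinib against control, leaving out single libraries gave 0 to 1 called members. For combination against control the count was 2 without TMM scaling, 0 with an epidermal score in the fit, and 0 to 1 without single libraries. For combination against cediranib it was 0 with the epidermal score, 0 with the replicate block and 0 to 0 without single libraries. With the epidermal score the calls over all genes also fell, from 1287 to 57 for combination against control, from 125 to 2 for combination against trametinib and from 991 to 475 for combination against cediranib. The replicate block, which pairs tumors that share only a number, changed no other count of called members. Without TMM scaling the median log2 fold change of the members was 0.15 for combination against control, 0.00269 for combination against trametinib, 0.141 for combination against cediranib and 0.0302 for the interaction, while the median of all genes moved to 0.13, 0.12, 0.12 and 0.11.

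Some uncalled values changed sign. In combination against trametinib Mcm2 was 0.0114 without TMM scaling and 0.15 with the epidermal score. Pcna was 0.10 without TMM scaling, 0.00424 without the filter, 0.00548 with the stricter filter (minimum count 50), and -0.15 to 0.11 without single libraries. Orc6 was 0.0269 with the epidermal score, against -0.77 without it. Mki67 was 0.0213 without TMM scaling, and -0.33 to 0.0435 without single libraries. In combination against cediranib Mki67 was 0.0147 without TMM scaling, and -0.24 to 0.0419 without single libraries. In combination against control it ran from -0.0867 to 0.32 and Mcm2 in the interaction from -0.0290 to 0.15. Fits with a library left out have fewer samples, and their number of calls over all genes fell or rose. For combination against control it was 517 without control replicate 3 and 1330 without control replicate 1, against 1287 with all 12 libraries. The cause of the changes between settings was not tested. With 3 tumors a group, changes within the intervals given for each gene could not be detected.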
